A study of Mus musculus with 6 samples.

Results

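Among the regions of the mouse genome that carried an H3K4me3 peak in both 6TCF-treated and untreated mouse embryonic fibroblasts, 410 were at least 1.5 times wider in untreated cells and are described here as narrowed after 6TCF. Apart from the pairing and the exclusions given next, they were chosen by peak width. A pair was formed from 1 treated and 1 untreated peak that overlapped each other by at least 1 bp and touched no further H3K4me3 peak, which gave 16153 pairs. Pairs with a member that overlapped an H3K27me3 or input peak of either condition were set aside, and 15469 remained. The rule also excluded the mitochondrial chromosome, on which no pair lay. Of these, 2.65% were narrowed (95% Wilson interval 2.41 to 2.92), and 692 were widened by the mirror rule, with a treated peak at least 1.5 times as wide as the untreated one (4.47%, 4.16 to 4.81). The other 14367 pairs lay in between. The intervals treat pairs as independent and cover counting error only.

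Trimethylation of lysine 4 on histone H3 (H3K4me3) is laid down by the SET1 and MLL methyltransferase complexes and removed by KDM5 demethylases. It marks the nucleosomes around the start sites of active and poised genes, most of them in stretches rich in CpG dinucleotides. Its breadth differs between genes, and unusually broad domains are known from genes tied to a cell's identity. Fibroblasts are connective tissue cells that make extracellular matrix.

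The cells were primary embryonic fibroblasts of the C57BL/6 strain, sampled on day 6 either under the chemical combination that the labels call 6TCF or as an untreated control. The labels do not state what 6TCF contains or at what dose, and the growth protocol, which is the same for every sample, puts the cells into a serum-containing medium with basic fibroblast growth factor. The labels do not tell whether the untreated cells received that medium. Each of the 6 groups (H3K4me3, H3K27me3 and input DNA, treated and untreated) held 1 library, so no difference can be set against a spread between replicates, no p-value is given, and every value below describes these libraries. The antibody field of the labels names H3K4me2 for the libraries titled H3K4me3 and H3K4me1 for those titled H3K27me3, and the names of the titles are used. The files hold positions only. The treated H3K4me3 list has 18185 peaks of 366 to 9030 bp and the untreated one 17168 peaks of 348 to 9151 bp. Read depth is unknown, and because no gene annotation or sequence of build mm9 was used, regions are given by mm9 position without a gene, and the fibroblast label could not be set against marker genes.

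The width difference of the narrowed pairs was mostly moderate. In untreated cells their peaks were 651 to 8783 bp wide, with a median of 3118.5 bp and a middle 50% from 2004 to 4522 bp. In treated cells they were 397 to 5334 bp wide, with a median of 1735.5 bp and a middle 50% from 1048.8 to 2636.2 bp. The width ratio, untreated over treated, had a median of 1.7 and was under 2 in 327 pairs (79.8%), from 2 to under 3 in 69 and 3 or more in 14. The widened pairs were spread in nearly the same way, with 546 of 692 (78.9%) under 2-fold and 26 at 3-fold or more. Summed over the 410 pairs, the peaks covered 1411.9 kb in untreated and 789.8 kb in treated cells. These widths selected the pairs, so they carry no test.

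**Figure D1:**
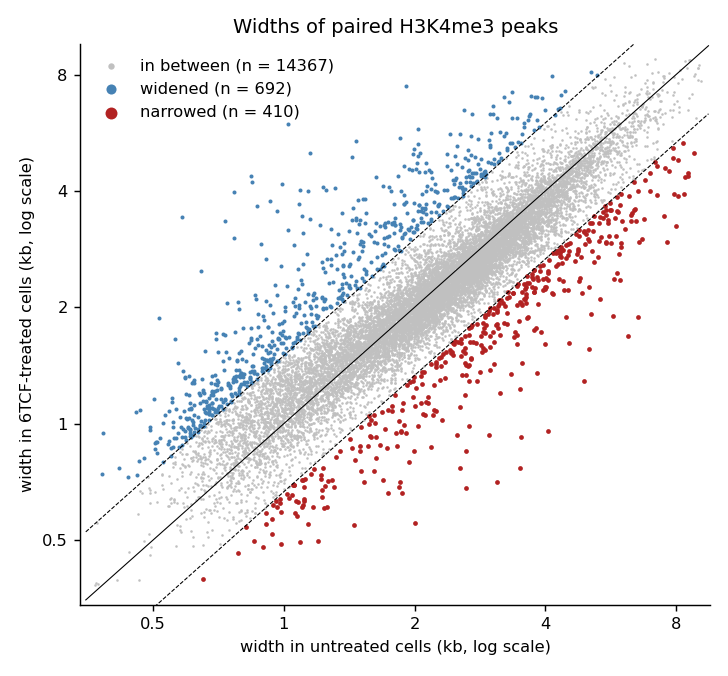
Width of each H3K4me3 pair in untreated (x axis) and 6TCF-treated cells (y axis), in kb on log scales, with 1 point per pair. The solid line marks equal widths and the dashed lines a 1.5-fold difference. The 410 narrowed pairs (red) lie below the lower dashed line over nearly the whole range of widths, and the 692 widened pairs (blue) lie mostly at small untreated widths.

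The 3 pairs just inside the 1.5-fold limit were on chromosome 9, 62525248 to 62528226 (2979 bp untreated, 1986 bp treated), chromosome 17, 7373339 to 7376625 (3287 and 2191 bp), and chromosome 18, 58365742 to 58370922 (5181 and 3453 bp). The 3 just outside were on chromosome 12, 70858654 to 70859681 (1028 bp untreated, 686 bp treated), chromosome 8, 125934698 to 125937012 (2315 and 1545 bp), and chromosome X, 104115424 to 104119488 (4065 and 2713 bp). Each of these 6 pairs has a ratio of 1.5 when rounded.

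Narrowed pairs were found at every width, with the highest shares in the widest and the narrowest decile. All 15469 pairs were ranked by the geometric mean of their 2 widths and divided into deciles. The narrowed share was 3.49% (54 of 1547, interval 2.69 to 4.53) in the narrowest decile, where the mean width was up to 1039 bp. It was lowest in decile 4, at 1.62% (25 of 1547, 1.10 to 2.37). In the widest decile, from 3933 to 8742 bp, the narrowed share was 4.46% (69 of 1547, 3.54 to 5.61). Widened pairs were arranged differently, with 12.2% (188 of 1547, 10.6 to 13.9) in the narrowest decile and 3.10% (48 of 1547, 2.35 to 4.09) in the widest. The widest decile was the only one with more narrowed than widened pairs, although the intervals of the 2 shares there overlap. With treated widths divided by 0.982, the median treated to untreated ratio of all kept pairs, the numbers in that decile were 61 narrowed and 49 widened. In the narrowest decile they were then 49 narrowed and 207 widened. Neither list holds a peak wider than 9151 bp, so a pair with a still wider member would not appear in any decile.

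**Figure D2:**
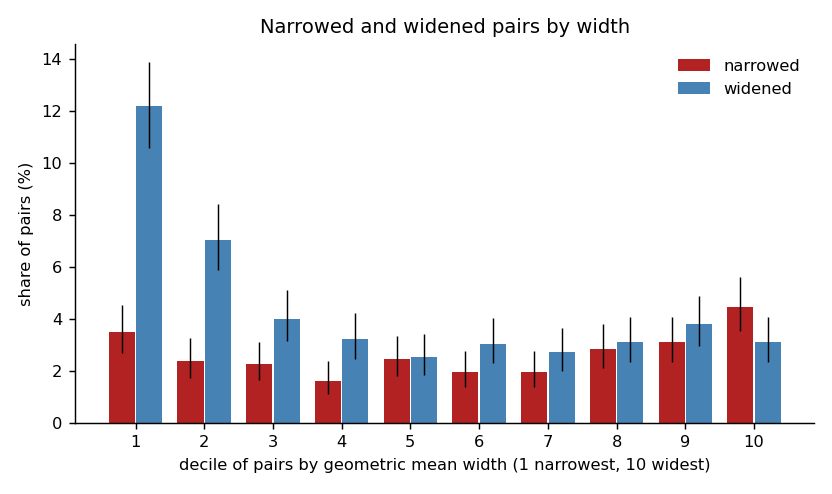
Share of pairs that were narrowed (red) or widened (blue) in each decile of the 15469 pairs by geometric mean width, in percent, with 95% Wilson intervals for counting error. The narrowed share is 3.49% in the narrowest decile, 1.62% in decile 4 and 4.46% in the widest, while the widened share is 12.2% in the narrowest decile.

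Many untreated members of narrowed pairs were among the broadest H3K4me3 peaks of untreated cells. The widest 5% of a list began at 4760.6 bp in untreated and 4548.8 bp in treated cells. Of the 410 untreated members, 96 (23.4%) were in the widest 5% of their list, and 88 of those 96 were outside the widest 5% of the treated list. The median of the 96 in the treated ranking was percentile 84.1 and the lowest was percentile 24.0. Over all 410, the median percentile was 77.8 in the untreated and 39.1 in the treated list, and the median difference between a member's own 2 percentiles was 25.2. Peaks over 4 kb numbered 135 in untreated and 15 in treated cells. At the other end of the range, 97 treated members were up to 1 kb wide, against 16 untreated members. Members had to be at least 1.5 times wider in untreated cells to be chosen, so these shifts follow from the rule in direction. The rule also sets part of their size, including most of the exit from the widest 5%. The same counts were not made for in-between or widened pairs, so the sizes are a description without a background.

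The largest ratio was on chromosome 1, where the untreated peak from 10707103 to 10710602 was 3500 bp wide and the treated peak 768 bp, a 4.56-fold difference. On chromosome 5, 137545311 to 137548412, the widths were 3102 bp untreated and 706 bp treated, 4.39-fold. On chromosome 19, 36190582 to 36194636, they were 4055 and 956 bp, 4.24-fold. These 3 treated peaks are all shorter than 1 kb, and each lies near 1 end of its untreated partner. The next were on chromosome 7, 133766654 to 133769280 (2627 bp untreated and 680 bp treated), and on chromosome 1, 137220836 to 137224354 (3519 and 924 bp). A further member on chromosome 1, 6348426 to 6353338, had 4913 bp untreated and 1293 bp treated. On chromosome 13, 23663547 to 23669737, the widths were 6191 and 1681 bp, 3.68-fold. In this pair the lower ends lay 9 bp apart and the higher ends 4519 bp apart. The last 3 of the first 10 were on chromosome 6, 37380458 to 37382460 (2003 and 554 bp), chromosome 2, 165704041 to 165710564 (6524 and 1886 bp), and chromosome X, 156278189 to 156280739 (2551 and 766 bp). Those on chromosomes 6 and X were the only 2 of the 10 in which the end with the larger difference held less than 75% of it, with 63.6% and 58.0%.

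**Figure D3:**
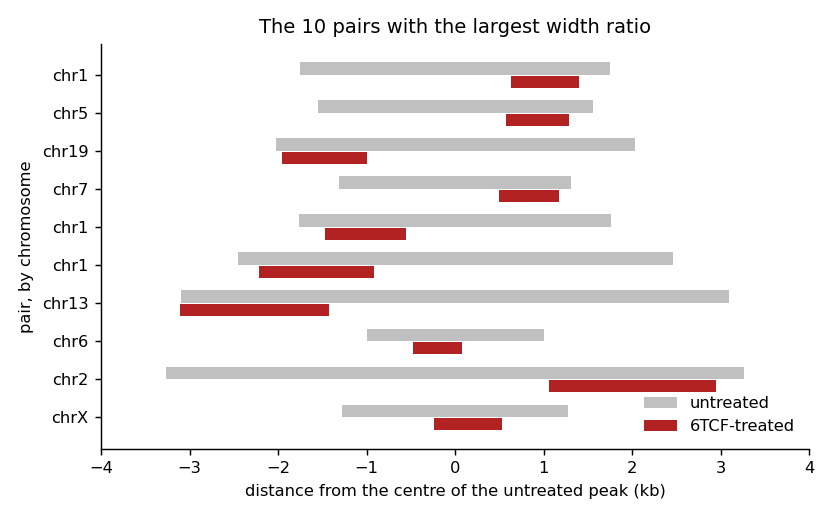
Extent of the untreated (grey) and treated (red) H3K4me3 peak in the 10 narrowed pairs with the largest width ratio, in kb from the centre of the untreated peak, in order of the ratio from top to bottom. In 8 of the 10 the treated peak lies to 1 side of the untreated centre, and on chromosome 13 both peaks start within 9 bp of each other.

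In absolute length the largest difference was 4752 bp, on chromosome 18, 52682367 to 52690369, with 8003 bp untreated and 3251 bp treated. It was followed by chromosome 8, 67205729 to 67213371, with 7643 and 2958 bp, a difference of 4685 bp. Both differed almost entirely at the end with the lower coordinate, by 4627 and 4535 bp, and by 125 and 150 bp at the other. Next came the pairs on chromosomes 2 and 13 named above, with 4638 and 4510 bp. The fifth, on chromosome 3, 121423629 to 121431965, differed by 4400 bp and at both ends, by 1639 bp at the lower and 2761 bp at the higher.

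A few treated members were broad by the standard of the treated list. The 5 widest were on chromosome 10, 127098393 to 127106672 (8280 bp untreated, 5334 bp treated), chromosome 7, 52067539 to 52075393 (7855 and 5178 bp), and chromosome 15, 77665157 to 77673939 (8783 and 5022 bp), followed by 2 more on chromosome 15. These are at 102792593 to 102800477 (7885 and 4874 bp) and at 102826164 to 102834238 (8075 and 4815 bp), and they belong to a row of neighbouring pairs described below. Of the 410 treated members, 8 were in the widest 5% of their list, against 96 of the untreated members in theirs. The width rule sets the direction of this difference and part of its size, as stated above.

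The difference in width lay mainly at a single end. The end with the larger difference held a median of 90.2% of the net difference in width, and it held at least 75% in 308 of 410 pairs (75.1%). By its definition this share cannot be under 50%. It is more than the whole net difference where the treated peak extends past the untreated one at the other end. The median reach was 1188 bp at the end with the larger difference and 124.5 bp at the other. In 261 pairs (63.7%, interval 58.9 to 68.2) the other end was the same in both conditions to within 200 bp. In 137 pairs (33.4%) the untreated peak reached more than 200 bp further at both ends, and in 12 the treated peak reached more than 200 bp further at the other end. The treated peak lay wholly inside the untreated one in 327 pairs (79.8%). In the remaining 83 it extended past the untreated peak at 1 end, by a median of 92 bp and at most 412 bp. The end with the larger difference had the lower coordinate in 206 pairs and the higher in 203, and in 1 pair both ends differed equally. Lower and higher refer to the coordinate and not to the direction of a gene, because the lists give every peak the same strand sign.

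**Figure D4:**
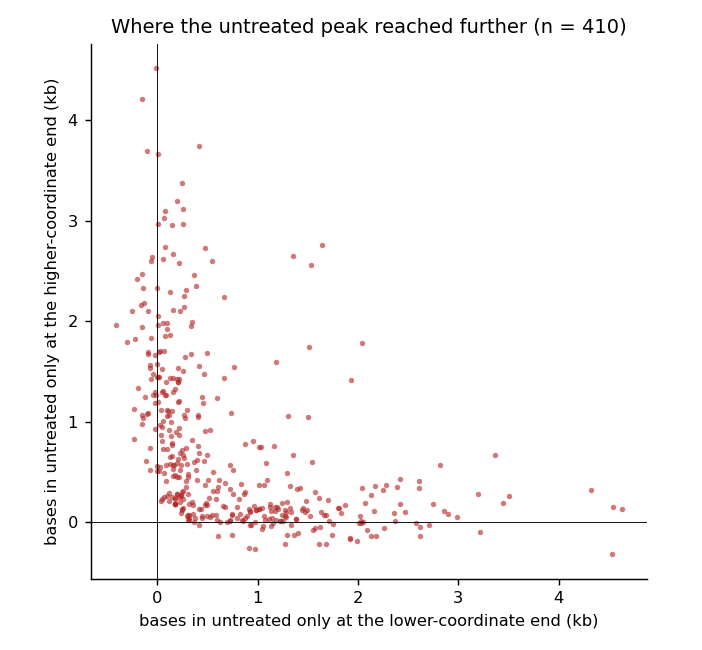
Bases covered in untreated cells only at the lower-coordinate end (x axis) and the higher-coordinate end (y axis) of each of the 410 narrowed pairs, in kb, with 1 point per pair. Negative values mean that the treated peak reached further. Most points lie along the axes, where a single end holds the difference (median 90.2%), and few lie over 1 kb on both.

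Differences at mainly a single end were also seen outside the narrowed pairs. In widened pairs, where the treated peak is the longer one, the larger end held a median of 82.5% of the difference, and the other end was within 200 bp in 422 of 692 (61.0%, 57.3 to 64.5). Among 1563 in-between pairs that were at least 1.2 times wider in untreated cells the median was 83.4%, and the other end was within 200 bp in 1227 (78.5%, 76.4 to 80.5). The larger end of the narrowed pairs differed by more than 600 bp, the mean length to which the chromatin had been sheared, in 324 of 410 (79.0%). The numbers were 392 of 692 widened pairs (56.6%) and 527 of these 1563 in-between pairs (33.7%). At the smaller end 20 narrowed (4.88%), 27 widened (3.90%) and 7 of these in-between pairs (0.448%) differed by more than that length. The width rule by itself requires such a difference at the larger end of the wider members, so it sets part of these shares. The wider member of a widened pair had a median of 2139 bp, against 3118.5 bp for narrowed pairs.

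The pattern at the ends varied with width. When the 410 pairs were divided into quartiles by untreated width, the median ratio was between 1.67 and 1.75 in each. The median difference was 572 bp in the narrowest quartile (651 to 2003 bp untreated), 1058.5 and 1555 bp in the middle quartiles and 2562 bp in the widest (4526 to 8783 bp). The larger end held a median of 77.4% of the difference in the narrowest quartile, 88.8% and 94.7% in the middle quartiles and 93.1% in the widest. In the widest quartile 50 of 103 pairs (48.5%) differed by more than 200 bp at both ends. In the narrowest, where 200 bp is a greater part of the peak, 25 of 103 (24.3%) did. The middle quartiles had 34.3% and 26.5%, so this share did not rise steadily with width.

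The longest differences at the lower end were on chromosomes 18 and 8, given above, and on chromosome 15, 76022721 to 76030801. There the untreated peak of 8081 bp began 4528 bp before the treated peak of 3876 bp and ended 323 bp before it. At the higher end the longest was the pair on chromosome 13 with 4519 bp. The next was also on chromosome 13, 23621564 to 23629070, with 7507 bp untreated and 3443 bp treated. Its treated peak began 151 bp earlier and ended 4215 bp earlier. The third was on chromosome 6, 108607877 to 108616413, with 8537 and 4372 bp, where the higher ends lay 3746 bp apart.

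A few narrowed pairs lay next to each other. With members no more than 20 kb apart joined, there were 7 groups of 2 pairs. The closest was on chromosome 4, where untreated peaks at 43050421 to 43053537 and 43056687 to 43059593 were 3149 bp apart. They measured 3117 and 2907 bp untreated and 2017 and 1718 bp treated, and both reached further at the lower end, by 1076 and 1148 bp. On chromosome 19, at 43596709 and 43604522, the pairs measured 3373 and 1294 bp untreated and 2172 and 716 bp treated. On chromosome 6 there were 3 such groups. The group at 5332387 to 5342491 had 2124 and 2703 bp untreated against 1138 and 1478 bp treated, and both pairs differed at the higher end. The group at 34547479 to 34561144 had 6764 and 1585 bp untreated against 3386 and 922 bp treated, and its pairs differed at opposite ends. The group at 83958027 to 83970255 had 2558 and 1614 bp untreated against 1500 and 1056 bp treated.

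The longest row of narrowed pairs was on chromosome 15, and it was singled out after its values were seen. From 102792593 to 102891741, a stretch of 99.1 kb, 4 narrowed pairs followed each other with gaps of 22.0 to 29.4 kb. Their widths were 7885 bp untreated and 4874 bp treated, 8075 and 4815 bp, 3033 and 1926 bp, and 3074 and 1802 bp, which are ratios of 1.62, 1.68, 1.57 and 1.71. The 3 other pairs between them were also wider in untreated cells, at 5732 and 4171 bp (1.37-fold), 4629 and 3341 bp (1.39-fold), and 3313 and 2344 bp (1.41-fold). Thus all 7 pairs of the stretch were at least 1.37 times wider in untreated cells. The 8 pairs in the 60 kb on either side had ratios from 0.737 to 1.13. One of these 8, at 102765127 to 102766042 with 916 bp untreated and 985 bp treated, overlapped a treated H3K27me3 peak of 499 bp (102765853 to 102766351) and so was not among the kept pairs. The stretch also held 2 treated and 2 untreated peaks between 102839303 and 102847486 that overlapped in a chain and so formed no pair. They measured 3404 and 3059 bp in treated and 4856 and 3317 bp in untreated cells. An untreated H3K27me3 peak of 185 bp, from 102841075 to 102841259, lay inside the first of these untreated peaks.

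**Figure D5:**
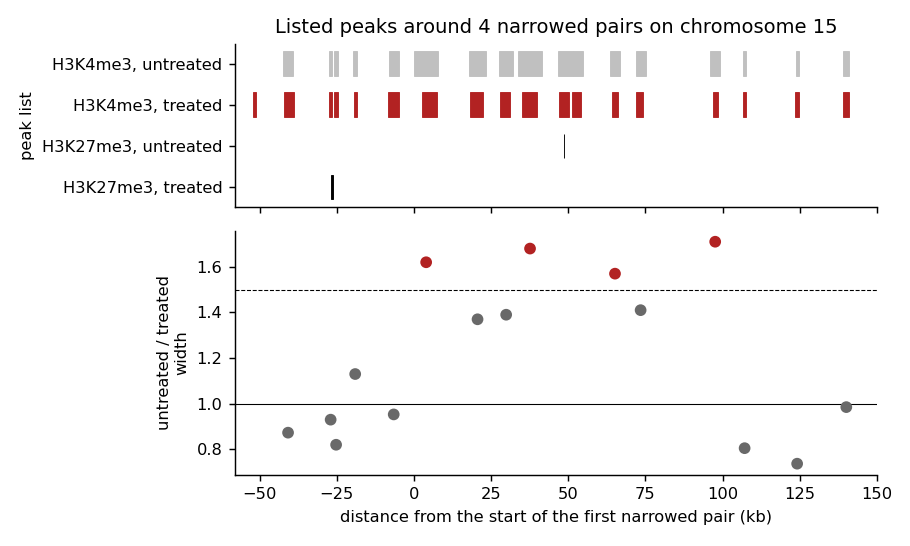
Listed H3K4me3 and H3K27me3 peaks (top) and the ratio of untreated to treated width of each H3K4me3 pair (bottom, narrowed pairs in red, the dashed line at 1.5) around the row of narrowed pairs on chromosome 15, by distance in kb from the start of the first narrowed pair. The 7 pairs from 0 to 99.1 kb have ratios of 1.37 to 1.71, and the pairs on both sides lie between 0.737 and 1.13. No input peak was listed in this window.

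Chromosome 13 held another stretch with several members, also picked out after its values were seen. It was formed by joining members up to 200 kb apart, so it begins and ends with a narrowed pair. With a limit of 100 kb it fell into 23621564 to 23669737 and 23788821 to 23845387, with 2 members each. Between 23621564 and 23845387 (223.8 kb), 4 of 12 pairs were narrowed, 10 of 12 were wider in untreated cells and none was widened. Over all kept pairs, 2.65% were narrowed and 54.7% were wider in untreated cells. The narrowed pairs measured 7507 bp untreated and 3443 bp treated, 6191 and 1681 bp, 2244 and 1441 bp, and 2900 and 1906 bp. All 4 reached further at the higher end. The stretch also held 1 peak listed in treated cells only and 1 listed in untreated cells only. The untreated-only peak, 2652 bp wide from 23673100, lay 3362 bp past the end of the 6191 bp peak, on the side of the larger difference.

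Pairs neighbouring a narrowed pair were narrowed at 5% (18 of 360 neighbours within 50 kb, 3.19 to 7.76), against 2.39% (330 of 13814, 2.15 to 2.66) for neighbours of in-between pairs and 2.26% (12 of 532, 1.29 to 3.90) for neighbours of widened pairs. Widened pairs showed the same kind of pattern. Their neighbours were widened at 6.77% (36 of 532, 4.93 to 9.23), against 3.50% (484 of 13814, 3.21 to 3.82) beside in-between pairs and 3.33% (12 of 360, 1.92 to 5.74) beside narrowed pairs. Neighbours of the same class are counted once from each side, and a pair can be counted as the neighbour on both its sides. The intervals treat these counts as independent and are therefore too narrow, most of all for the same-class shares. Among these neighbours the treated to untreated width ratio had a median log2 value of -0.07 beside narrowed pairs, -0.04 beside in-between pairs and 0.03 beside widened pairs. Over all kept pairs it was -0.03 with a standard deviation of 0.32. Of the 360 neighbours of narrowed pairs, 214 (59.4%) were narrower in treated cells. This compares with 57.5% of the neighbours of in-between pairs, 43.6% of those of widened pairs and 54.7% of all kept pairs.

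The median distance to other H3K4me3 peaks had overlapping intervals in the 3 classes of pairs. The nearest other peak of either list was a median of 26.9 kb away (22.3 to 31.1) for narrowed, 27 kb (22.7 to 32.5) for widened and 24.2 kb (23.6 to 24.7) for in-between pairs. With in-between pairs weighted to the widths of the narrowed pairs their median was 24.8 kb. A peak within 5 kb was found for 46 narrowed pairs (11.2%, 8.52 to 14.6) for 109 widened pairs (15.8%, 13.2 to 18.7) and for 12.2% (11.7 to 12.8) of in-between pairs. Within 5 kb on the side of the larger difference a treated peak was listed for 19 pairs, and within 5 kb on the other side for 28.

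Peaks listed in 1 condition only, which overlap no peak of the other list, lay near some members. Such a peak was within 20 kb of 35 narrowed pairs (8.54%, 6.20 to 11.6), of 7.79% (7.36 to 8.24) of in-between pairs and of 107 widened pairs (15.5%, 13.0 to 18.3). Treated-only peaks lay within 5 kb of 7 narrowed pairs (1.71%, 0.829 to 3.48), 3 of them on the side of the larger difference, against 1.23% of in-between and 4.34% of widened pairs. Untreated-only peaks lay within 5 kb of 2 narrowed pairs (0.488%, 0.134 to 1.76), against 0.557% of in-between and 2.17% of widened pairs. The nearest treated-only peak was 52 bp away. It was 3534 bp wide on chromosome 10, from 126724086, beside a narrowed pair of 5121 bp untreated and 2799 bp treated, and at the end with the smaller difference. At the chromosome 6 pair of 8537 bp named above, a treated-only peak of 1042 bp began 1562 bp past the untreated end, on the side where the untreated peak reached 3746 bp further. The treated cells thus had a separate H3K4me3 peak just beyond the stretch that was listed in untreated cells only.

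By chromosome, the share of narrowed pairs was highest on chromosome 6 (34 of 775, 4.39%, 3.16 to 6.07) and chromosome 3 (33 of 779, 4.24%, 3.03 to 5.89). It was lowest on chromosome 14 (6 of 513, 1.17%, 0.537 to 2.53), chromosome 17 (9 of 681, 1.32%, 0.697 to 2.49) and chromosome 9 (14 of 872, 1.61%, 0.959 to 2.68), leaving aside chromosome Y with 4 kept pairs. On chromosome 14 widened pairs made up 6.63% (34 of 513, 4.78 to 9.12), the highest share of any chromosome. Chromosome X, with 14 of 529 (2.65%), was at the share of all pairs.

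Few pairs that met the width rule were set aside for an H3K27me3 or input peak. Of 416 pairs with at least a 1.5-fold wider untreated peak, 6 were set aside (1.44%, 0.663 to 3.11). The corresponding numbers were 120 of 812 widened pairs (14.8%, 12.5 to 17.4) and 558 of 14925 in-between pairs (3.74%, 3.45 to 4.06). H3K27me3 is the mark of Polycomb repression, and together with H3K4me3 it marks promoters called bivalent. The H3K27me3 lists held 821 treated peaks with a median of 149 bp and 1242 untreated peaks with a median of 211.5 bp. The input lists were not far from that, with 604 treated and 740 untreated peaks and medians of 146 and 142 bp. With lists this short, a region without a listed H3K27me3 peak cannot be taken to lack the mark. An H3K27me3 peak overlapped 4 of the 416 and an input peak 5 of them. Over all 16153 pairs the numbers were 609 with H3K27me3 and 139 with input. They were 118 and 12 of the 812 widened pairs, and 487 and 122 of the 14925 in-between pairs. The pair on chromosome 4, 106135686 to 106137447 (1762 bp untreated, 1151 bp treated), was the only one of the 6 with an H3K27me3 peak and no input peak. The largest ratio among the 6 was 3.08, on chromosome 19, 5486609 to 5493562, where an untreated input peak was listed. Beyond direct overlap, the nearest H3K27me3 peak was a median of 418.0 kb from narrowed pairs (344.4 to 475.5), 412.0 kb from widened and 354.8 kb (343.6 to 367.1) from in-between pairs. An H3K27me3 peak lay within 5 kb of 4 narrowed pairs (0.976%, 0.380 to 2.48), against 1.88% (1.10 to 3.19) of widened and 1.61% (1.41 to 1.83) of in-between pairs. An input peak lay within 5 kb of 1 narrowed pair (0.244%, 0.0431 to 1.37), against 0.376% (0.288 to 0.490) of in-between pairs.

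A peak's width in such a list can depend on depth, antibody yield and the calling threshold, none of which is known here, and their part in these differences was not tested. The treatment and the library cannot be told apart.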

How the data were processed

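The measurements are peak positions from 6 ChIP-seq libraries, 1 each for H3K4me3, H3K27me3 and input DNA in treated and untreated cells. Per the submitters' processing notes, CASAVA 1.7, Bowtie2 2.2.5, MACS 1.4.3, HOMER and build mm9 were used, with no role or order. Which tool called the lists, with what threshold and control, is not given in the sources used here. As deposited, each list gives chromosome, start, end and a constant strand sign, with no score or read number, so depth is unknown. Starts were read as counted from 0 and are printed from 1.

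Width is end minus start as deposited. Pairs were formed and ends, neighbours and chromosomes counted in Python 3.11.15 with numpy 2.4.6, pandas 2.3.3 and scipy 1.17.1. The overlap count was checked against bedtools 2.31.1, and the pairing and end rules were tested on simulated data. Distances run from the outer edges of a pair to the nearest peak that does not overlap it. Intervals of shares are 95% Wilson intervals, and intervals of medians come from order statistics. No p-value was computed. Weighting gave in-between pairs the narrowed pairs' numbers per decile of mean width.

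Samples were grouped by title. Regions named are the 10 with the largest ratio, the 5 with the largest difference, the 5 with the widest treated peak, 3 on each side of the threshold, 3 per end, and up to 5 groups within 20 kb. The members and rules were chosen with earlier results of these data known. The 200 bp and 1.2-fold limits, the neighbouring pairs within 50 kb, the widest 5%, and the stretches on chromosomes 15 and 13 were added after the data were seen. The reference gene and promoter tables are of another build, so gene names, marker lists, sequences and their composition were not used here.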

Additional observations from a re-analysis of the deposited data

How the results depend on the processing

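The number of narrowed pairs depended mainly on the fold threshold. It was 1012 at 1.3-fold and 83 at 2-fold, against 410, and widened pairs were more numerous at both (1497 and 146). The other settings gave 411 pairs with an overlap of at least 50% of the narrower peak, 416 with H3K27me3 and input overlaps kept, 313 with both peaks at least 1000 bp, 423 with peaks up to 1000 bp apart joined and 371 with scaled widths. Of the 410 members, 404 were still narrowed after joining. The median difference in width was 1334 bp, and 911 bp at 1.3-fold, 1947 bp at 2-fold and 1498 bp with both peaks at least 1000 bp, as the choice of wider or more different pairs requires. The larger end held a median of 87.6% to 92.6% of the difference over the fold, overlap, H3K27me3 and input, and 1000 bp settings, and was not computed with joined peaks or scaled widths. The median distance to the nearest other H3K4me3 peak was 22.8 kb at 2-fold and 25 kb at 1.3-fold, inside the interval of the value reported. The planned composition of kept and lost bases was not run, because no sequence of build mm9 was used here. No paired analysis was possible because each group has 1 library. Unknown depth limits every width.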

Other observations

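Untreated peaks that faced several treated peaks fall outside the pairs described above. Among peaks without an H3K27me3 or input peak, 46 untreated peaks each overlapped 2 treated peaks that met no other untreated peak. Their width divided by the summed width of the facing peaks had a median of 1.10, and 1 of the 46 (2.17%) reached 1.5. That peak, on chromosome 8, 87363341 to 87371931, was 8591 bp wide and faced 2 treated peaks with a summed width of 5536 bp. In the opposite arrangement, 61 treated peaks each overlapped 2 untreated peaks, and 7 of them (11.5%) were at least 1.5 times as wide as the facing peaks together. The median of this ratio was 0.995. The summed width leaves out the gap between the facing peaks, which raises the ratio in both arrangements. Among the kept pairs, which have no such gap, 2.65% were narrowed and 4.47% widened.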
